A study of Homo sapiens with 2 samples.

Results

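The translation initiation factor genes were taken as all genes whose symbol in the platform annotation begins with EIF and a digit, without the eIF2 kinases (symbols beginning with EIF2AK). The rule gave 52 of 20046 named genes and 79 of 47322 probes. By symbol, 5 genes belonged to EIF1, 5 to EIF2, 5 to EIF2B, 16 to EIF3, 15 to EIF4, 5 to EIF5 and 1 to EIF6. RNA came from cells labelled Jurkat, a line from a human T cell leukaemia, kept in culture for 24 hours with the small molecule Me6TREN, a branched amine that binds metal ions, or with phosphate-buffered saline (PBS) as the control. Each group had 1 Illumina HT12 array, so that nothing here carries an error or a test, and every difference compares 2 arrays without replicates. The sources used here do not give the dose of Me6TREN.

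The control array detected 32.5% of its probes and the Me6TREN array 28.9%, at a detection p-value under 0.01, and probes had a median of 22 beads on either array. The lowest detected signals were 333.4 and 350.5. Of 11 markers of the labelled cell type, T cells, 2 were detected on both arrays (CD247 and CD28), 5 on 1 array, and 4 on neither (CD3E, CD5, CD7 and LCK). In contrast, 4 of 5 B cell markers passed detection on both arrays (CD79B, CD79A, BLK and MS4A1). Summed over each list, marker signals as deposited were 4643 and 3958 for T cells and 80639 and 78576 for B cells, control array first, and their part in the results below was not tested. The number of arrays, not of probes, limits the precision.

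Initiation factors bring the ribosome, the initiator tRNA and the messenger RNA together at the start codon. eIF4F, made of the cap-binding protein eIF4E, the scaffold eIF4G and the helicase eIF4A, engages the capped end of the message, while eIF3 and eIF2 with eIF1, eIF1A and eIF5 load the small ribosomal subunit that scans to the start codon. The cell regulates this step chiefly by phosphorylating eIF2, which then blocks its exchange factor eIF2B, and by releasing eIF4E from the 4E-binding proteins through the kinase mTOR. An array reads the abundance of the messenger RNAs that encode these proteins, not their phosphorylation, their assembly or the rate of translation.

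Of the 51 genes other than EIF1AY, which is Y-linked and whose level is not given, 44 were measured, that is, detected on at least 1 array, and 42 were detected on both. The genes were mostly abundant: 21 of the 44 lay in the brightest of 10 equal bins into which all 9410 measured genes were put by mean signal. Each gene was read from its brightest detected probe, and ratios are Me6TREN over control after background correction and quantile normalization. At least 1.5-fold higher were 5 of the 44 (11.4%) and at least 1.5-fold lower 9 (20.5%), against 16.5% and 21.9% of all measured genes. Among genes brighter than the median measured gene, 4 of 37 factor genes were higher and 7 lower, where the shares of all such genes were 13.5% and 19.8%. The median log2 ratio of the factor genes was −0.05 (−0.01 with the genes detected on 1 array at their bound), and that of all measured genes −0.12 (−0.02 with bounds). As a list, the initiation factor genes were thus called no more often than other genes with this scaling. With median centring in place of quantile normalization this did not hold upward, where 16 of the 44 (36.4%) were at least 1.5-fold higher, against 24.9% of all measured genes. The description that follows is of differences among the members.

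At the 2-fold level, 2 factor genes were higher and 1 lower, against 6.74% and 9.94% of all measured genes. The 2 were EIF3C and EIF1B, and the 1 was EIF4ENIF1. The plot of levels on both arrays sets all measured members side by side.

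**Figure D1:**
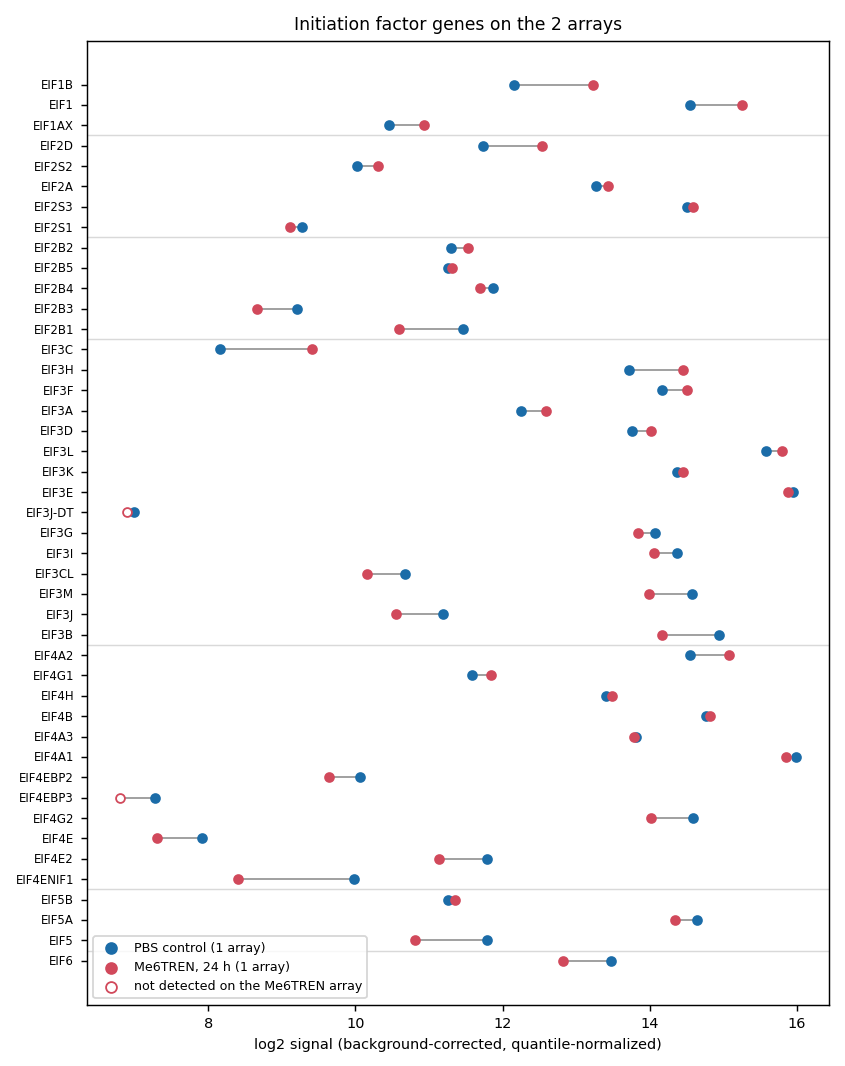
Log2 signal of each measured initiation factor gene (x axis, background-corrected and quantile-normalized, 1 point per array) by gene (y axis), with groups parted by lines and genes ordered by ratio within a group. Me6TREN points lie to the right of the control points for EIF1 and EIF1B, and EIF4ENIF1 has the widest gap in the other direction, from 9.99 to 8.40.

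The sequence upstream of the start is shown for members at both ends of the range, EIF1 and EIF1B (higher) and EIF4ENIF1 and EIF5 (lower), and for EIF4E and EIF4G1, whose upstream stretch holds an E-box, the hexamer CACGTG to which MYC binds with its partner MAX. Sequences are from RefSeq (GRCh38.p14), cover the 100 bases before the annotated start, read 5′ to 3′ along the gene, and carry in capitals the matches to any motif searched.
EIF1, chr17:41688785-41688884, plus strand: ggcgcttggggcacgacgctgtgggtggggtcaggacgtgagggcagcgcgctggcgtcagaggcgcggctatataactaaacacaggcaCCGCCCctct
EIF1B, chr3:40309607-40309706, plus strand: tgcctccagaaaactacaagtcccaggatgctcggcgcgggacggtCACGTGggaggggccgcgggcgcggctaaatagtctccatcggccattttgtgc
EIF4G1, chr3:184314506-184314605, plus strand: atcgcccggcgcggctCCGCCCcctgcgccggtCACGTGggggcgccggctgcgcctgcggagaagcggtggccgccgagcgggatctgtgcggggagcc
EIF4E, chr4:98929134-98929233, minus strand: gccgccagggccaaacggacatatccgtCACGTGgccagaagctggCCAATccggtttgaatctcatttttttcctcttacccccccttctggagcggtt
EIF4ENIF1, chr22:31489843-31489942, minus strand: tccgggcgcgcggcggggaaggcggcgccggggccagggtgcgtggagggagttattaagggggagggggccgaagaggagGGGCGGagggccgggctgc
EIF5, chr14:103334137-103334236, plus strand: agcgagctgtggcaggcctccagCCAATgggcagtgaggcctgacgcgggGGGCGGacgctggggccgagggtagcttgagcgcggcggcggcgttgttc
Of the 51 genes, 42 had a promoter entry. The motifs, searched on both strands of the 250 bases before the start, were the E-box CACGTG, the AP-1 element TGANTCA, the cyclic AMP response element TGACGTCA, the GC box GGGCGG, the CCAAT box CCAAT, the TATA box TATAAA and the YY1 element AAGATGGCG, none of which contains another. The E-box stood in 11 of the 42 (26.2%), against 6.34% of all 35116 promoters and 9.39% of those of genes measured here. The GC box stood in 69.0% of the 42, close to the 66.9% of measured genes. An AP-1 element stood in 3 (EIF3J, EIF3J-DT and EIF5AL1), against 6.57% of all promoters. The CCAAT box stood in 16 of the 42 and the TATA box in 2, against 32.0% and 10.7% of all promoters. Neither the cyclic AMP response element nor the YY1 element was found, and both are rare, at 1.65% and 0.652% of all promoters. Among measured members, the 10 with an E-box had a median log2 ratio of 0.07 (6 above 0) and the 27 without one −0.16 (11 above 0). For the GC box the split ran the other way as normalized here, with −0.12 for the 26 with it and 0.05 for the 11 without. That direction depended on the scaling: median-centred values gave 0.33 with a GC box and 0.21 without. The E-box split kept its direction there, at 0.53 with the motif and 0.21 without. Neither split was tested. A match is a description of these letters and no site of binding.

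The start itself was examined because many messages of the translation machinery begin with a C followed by a run of pyrimidines (a terminal oligopyrimidine tract), the feature through which mTOR controls their translation. A C followed by at least 4 pyrimidines at the annotated first base was found in 9 of the 42 (21.4%), against 4.07% of all promoters and 5.77% of those of measured genes. The 9 are shown with 15 bases before and 15 after the start (GRCh38.p14), the run in capitals.
EIF2D, chr1:206612451-206612480, minus strand: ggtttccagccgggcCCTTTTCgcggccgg
EIF2A, chr3:150546772-150546801, plus strand: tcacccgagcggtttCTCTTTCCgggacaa
EIF2S3, chrX:24054941-24054970, plus strand: ggggtgatttccttcCTCTTTTggcaacat
EIF3D, chr22:36529152-36529181, minus strand: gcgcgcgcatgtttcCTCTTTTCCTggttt
EIF3F, chr11:7987322-7987351, plus strand: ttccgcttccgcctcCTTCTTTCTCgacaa
EIF3K, chr19:38619173-38619202, plus strand: ttccgtttccaccacCTCTTCCTgttcccg
EIF3M, chr11:32583816-32583845, plus strand: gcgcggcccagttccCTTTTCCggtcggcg
EIF4A2, chr3:186783562-186783591, plus strand: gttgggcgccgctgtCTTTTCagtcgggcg
EIF4B, chr12:53006441-53006470, plus strand: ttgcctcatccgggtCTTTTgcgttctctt
In 8 of these 9 genes the log2 ratio was above 0, EIF3M being the exception at −0.59. Of the 8, EIF4B, EIF2S3 and EIF3K were close to 0, at 0.07, 0.07 and 0.09. In the other 28 measured genes with a promoter entry the ratio was above 0 in 9. Among all 9410 measured genes it was above 0 in 4103, and the 442 measured genes with such a run were not summarized. Measured members without a promoter entry, such as EIF3E, EIF3H and EIF3L, were in neither set. The medians of the 9 and the 28 were 0.16 and −0.24. Set against the median ratio of measured genes in the same signal bin they were 0.21 and −0.18, and with median centring in place of quantile normalization 0.82 and 0.13. These 9 were grouped after the values were seen, annotated starts can differ from those used in the cells, and no test was made.

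The EIF1 group was the highest. Its proteins, eIF1 and eIF1A, hold the small subunit open for scanning and guard the choice of the start codon. The deposited signals of EIF1 were 24049 (control) and 41636 (Me6TREN), a ratio 1.63-fold higher after normalization. EIF1B, its close paralogue, had signals of 5469.6 and 8896 and was 2.12-fold higher. EIF1 was higher on the Me6TREN array in the 10 processing alternatives that kept it and EIF1B in all 11, with log2 ratios of at least 0.69 and 0.87. For EIF1AX, which encodes eIF1A, the deposited signals were 1957 and 1771, lower on the Me6TREN array, and the normalized ratio was 1.39-fold the other way. Its direction is not settled: a dimmer probe, detected on the control array alone, gave −0.59 on the log2 scale, the mean of the probes −0.058 and the authors' processed values −0.033. EIF1AD, which encodes a protein with an eIF1A-like domain, was detected on neither array. The group median was a log2 ratio of 0.70 over 3 measured genes.

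Of the 5 EIF2 genes, EIF2D was the 1 past 1.5-fold upward (20%) and none was past it downward. The shares of all measured genes were 16.5% and 21.9%. With median centring EIF2A and EIF2S3 were past 1.5-fold upward too (60%, against 24.9% of all measured genes). eIF2 itself carries the initiator tRNA to the ribosome. Its alpha subunit gene EIF2S1, whose protein is the target of the stress kinases, had signals of 996.5 and 656.9 and a log2 ratio of −0.16. With the authors' processed values EIF2S1 was at −0.77, past 1.5-fold downward. It was the 1 of the 5 lower there (20%), against 42.3% of all measured genes. EIF2S2 (beta) had 1507 and 1209 with a log2 ratio of 0.29 (−0.26 with the authors' processed values), and EIF2S3 (gamma, the subunit that binds GTP) 23636 and 25389 with 0.07. None of the 3 subunits passed 1.5-fold as normalized here. EIF2A, which despite its symbol encodes a separate protein that binds initiator tRNA, had a log2 ratio of 0.16. EIF2D encodes a factor that can deliver tRNA and recycles ribosomes, with the same domains as the partners MCTS1 and DENR. Its signals were 4269.9 and 5355, a 1.74-fold difference upward that was below 1.5-fold with the authors' processed values (log2 ratio 0.49). The group median was 0.16 over 5 genes.

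The 5 EIF2B genes, whose products form the exchange factor that reloads eIF2 with GTP, were all dimmer on the Me6TREN array as deposited. So were 31 of the 44 measured members. After normalization 1 of the 5 was at least 1.5-fold lower (20%) and none higher, against 21.9% and 16.5% of all measured genes. EIF2B1, the alpha subunit of the regulatory part that senses phosphorylated eIF2, had signals of 3636 and 1441 and was 1.82-fold lower. It stayed below −0.77 on the log2 scale under all alternatives. EIF2B3 (gamma) had 963.1 and 544.2 and was 1.46-fold lower, just inside the threshold. With the authors' processed values it was past 1.5-fold downward (log2 ratio −1.18). There 2 of the 5 genes were lower (40%), against 42.3% of all measured genes. EIF2B4 (delta) had 4652 and 2926 with a log2 ratio of −0.18, and its other detected probe gave −0.26. EIF2B2 (beta) and the catalytic EIF2B5 (epsilon) had log2 ratios of 0.23 and 0.05, although their deposited signals went from 3263 to 2589 and from 3194 to 2248, and with the authors' processed values the ratios were −0.23 and −0.42. The group median was −0.18, and the subunits of this one complex spread from −0.87 to 0.23.

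EIF3, the largest factor, is the scaffold on the small subunit to which the other factors and eIF4G attach. Of its 13 subunit genes, EIF3A to EIF3M, all were detected on both arrays; 2 were at least 1.5-fold higher, 3 at least 1.5-fold lower, and 8 neither, shares close to the 16.5% and 21.9% of all measured genes. Their median log2 ratio was 0.09. With median centring 8 of the 13 were at least 1.5-fold higher and none lower (24.9% and 18.2% of all measured genes), so the split of this complex depended on the scaling. EIF3H, a subunit of the octameric core, had signals of 14739 and 22610.3 and was 1.65-fold higher. EIF3F, its partner in that core, had 19141 and 23533 and a log2 ratio of 0.35. EIF3L and EIF3K, which sit together at the edge of the complex, had log2 ratios of 0.21 and 0.09, EIF3D, which can bind the cap, 0.26, and the core scaffold EIF3A 0.34. EIF3E, at 61521 and 62192, was near the highest signal of either array (73763 and 74594); its log2 ratio of −0.07 turned to 0.73 with median centring.

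On the other side, EIF3B, which with EIF3G and EIF3I forms a module at the messenger RNA entry side, had signals of 31370.4 and 18074 and was 1.71-fold lower. Its 3 probes all gave ratios below 0, from −0.77 to −0.19, and its own ratio was −0.09 with median centring, so the size depended on the scaling. EIF3G and EIF3I had log2 ratios of −0.23 and −0.32, below 0 as well but not past 1.5-fold; with median centring both were above 0, at 0.33 and 0.32. EIF3J, a loosely bound subunit that helps dissociate ribosomal subunits, had 3039.7 and 1410.2 and was 1.55-fold lower, with a log2 ratio of −0.55, short of 1.5-fold, under median centring and −0.56 without background correction. EIF3M was 1.51-fold lower by its brightest probe (24228 and 15719), while its other probe gave 0.27 (4209 and 3585) and median centring turned the ratio of the brightest probe to 0.086. EIF3J-DT, the divergent noncoding transcript beside EIF3J, had signals of 370.6 and 342.6 and was detected on the control array alone. Its bound was a log2 ratio of 0, that is, no difference. EIF3IP1, a pseudogene, was detected on neither array.

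EIF3C had the highest ratio of all members, but its probe was dim and its copy went the other way. EIF3C had signals of 576.3 and 750.2 and was 2.39-fold higher. EIF3CL, a nearly identical copy on the same chromosome (16), had 2216 and 1109 and was 1.43-fold lower. The files do not settle which copy each probe reads, so the direction for this subunit is uncertain.

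**Figure D2:**
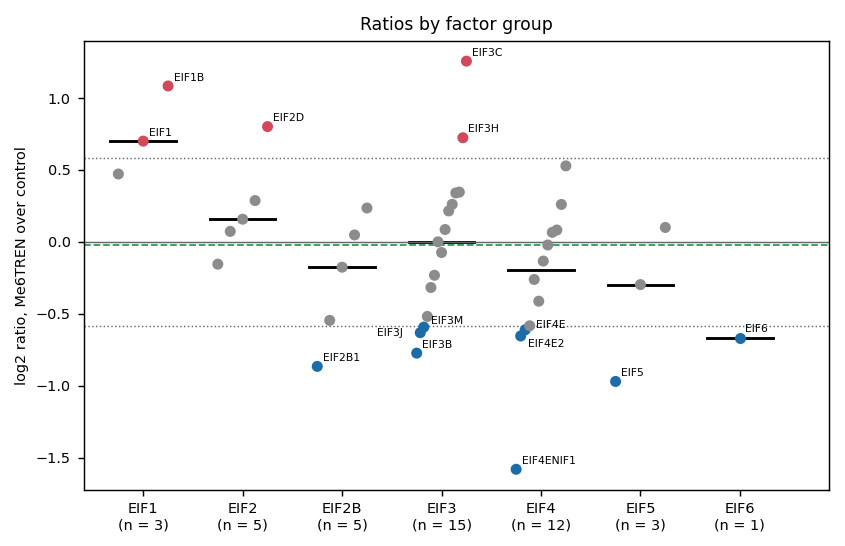
Log2 ratio of each measured initiation factor gene (y axis; genes detected on 1 array at their bound) by group (x axis, n = measured genes), with the group median as a bar, the median of all measured genes as a dashed line and 1.5-fold as dotted lines. All 5 genes past 1.5-fold upward (red) are in EIF1, EIF2 and EIF3, and all 9 past it downward (blue) are in EIF2B, EIF3, EIF4, EIF5 and EIF6. They are 11.4% and 20.5% of the 44 measured members, against 16.5% and 21.9% of all measured genes. With median centring 3 EIF4 genes were past 1.5-fold upward and no EIF3 gene downward.

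Of 12 measured EIF4 genes, 3 were at least 1.5-fold lower (25%) and none higher, against 21.9% and 16.5% of all measured genes. With median centring 1 was lower (EIF4ENIF1) and 3 were higher (EIF4A1, EIF4A2 and EIF4B), against 18.2% and 24.9% of all measured genes. EIF4ENIF1 encodes 4E-T, which binds eIF4E and carries it into the nucleus and into processing bodies. Its signals were 1483 and 498.2, 2.99-fold lower, with a log2 ratio no higher than −1.11 under any alternative. EIF4E2, a cap-binding protein that represses translation, had 4427 and 2030.2 and was 1.57-fold lower (log2 ratio −0.51 with median centring). EIF4E, the cap-binding subunit of eIF4F, was dim, at 521.0 and 368.1 by its brightest probe, which put it 1.53-fold lower. A second probe, detected on the Me6TREN array alone, had 323.0 and 402.7, and with the mean of the probes the log2 ratio of EIF4E turned to 0.28. No direction can be given for EIF4E from these 2 arrays. EIF4E3 and EIF4E1B were detected on neither array.

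The 4E-binding proteins hold eIF4E away from eIF4G until mTOR phosphorylates them. EIF4EBP1, the member studied most, was detected on neither array, with signals of 263.3 and 308.6. EIF4EBP2 had 1544 and 845.2 and a log2 ratio of −0.41. EIF4EBP3 was detected on the control array alone, at 409.5, and was at least 1.20-fold lower as normalized here. That bound depended on the processing, with a log2 ratio of −0.026 with median centring and −0.69 with the authors' processed values. EIF4EBP3 shares sequence with the read-through transcript ANKHD1-EIF4EBP3, so its assignment is uncertain.

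None of the helicases and scaffolds of eIF4F passed 1.5-fold as normalized here. EIF4A1, the main helicase, had signals of 63132 and 61559 and a log2 ratio of −0.13, which median centring turned to 0.68. EIF4A2, its paralogue, had 23978 and 36278 and a ratio 1.44-fold upward, past 1.5-fold with median centring (log2 ratio 1.32) and with the authors' processed values (0.75). EIF4A3, a subunit of the exon junction complex, had a log2 ratio of −0.02 (0.52 with median centring), and the helicase cofactors EIF4B and EIF4H had 0.07 and 0.08 (0.83 for EIF4B with median centring). EIF4G1, the scaffold, had 3927 and 3262 and 0.26, with a second probe at 0.29, and −0.15 with the authors' processed values. EIF4G2 encodes DAP5, a scaffold without the eIF4E site that serves cap-independent initiation. Its brightest probe had 24483 and 16018, a ratio of 1.499-fold downward, just inside the threshold that EIF3M passed at 1.509-fold. All 3 of its probes were below 0, from −1.49 to −0.50. With median centring the brightest probe was at 0.10, so its direction depended on the scaling, while the other probes were at −0.077 and −1.47. With the mean of the probes the log2 ratio of EIF4G2 was −0.86, past 1.5-fold downward.

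Of 3 measured EIF5 genes, 1 was at least 1.5-fold lower (33.3%) and none higher, against 21.9% and 16.5% of all measured genes. EIF5 activates the GTPase of eIF2 at the start codon. Its brightest probe had signals of 4412 and 1647 and was 1.96-fold lower. The next 2 probes lay near the detection limit and differed, with log2 ratios of −1.23 (detected on the control array alone) and 1.09 (detected on the Me6TREN array alone). With the mean of the probes the ratio of EIF5 was −0.37, no longer past 1.5-fold. EIF5B, the GTPase that joins the ribosomal subunits, had 3182 and 2321 and 0.10 (−0.36 with the authors' processed values), and EIF5A, the hypusine-carrying factor of elongation, 25372 and 20797 and −0.30 (0.43 with median centring). EIF5A2 and the retrocopy-like gene EIF5AL1 were detected on neither array. EIF6, which keeps the large subunit apart from the small one, had 12680.4 and 6507 and was 1.59-fold lower; a dim probe detected on the Me6TREN array alone gave 0.65, and the log2 ratio of EIF6 was −0.0070 with the mean of the probes and −0.27 with median centring.

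**Figure D3:**
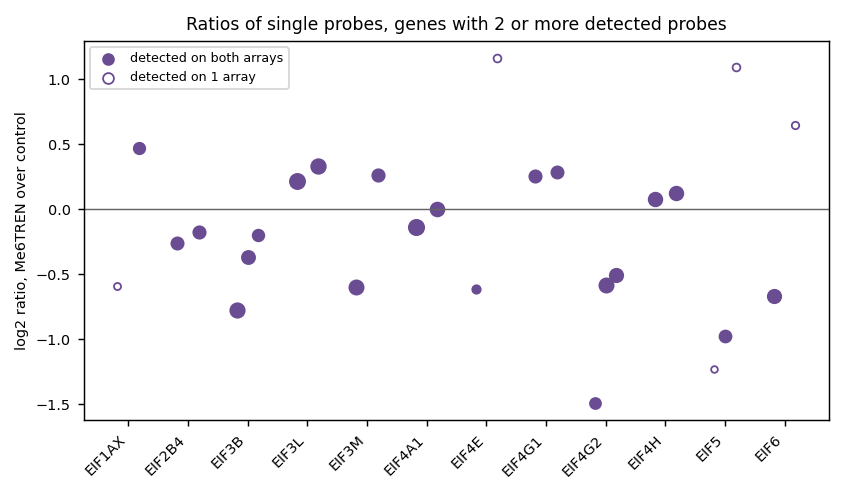
Log2 ratio of each detected probe (y axis) for the 12 genes with at least 2 detected probes (x axis); larger points are brighter probes and open points were detected on 1 array. The probes of 6 genes lie on one side of 0, while EIF1AX, EIF3M, EIF4E, EIF5 and EIF6 spread across it by over 0.5.

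Ordered by median log2 ratio, the groups ran EIF1 (0.70), EIF2 (0.16), EIF3 (−0.07), EIF2B (−0.18), EIF4 (−0.27) and EIF5 (−0.30), with EIF6, a single gene, at −0.67. With median centring the order was EIF1 (1.44), EIF3 (0.65), EIF2 (0.61), EIF4 (0.26), EIF5 (0.21) and EIF2B (−0.0031), so that of the 6 only the first place was shared. Counting genes detected on 1 array at their bound, EIF3 was at 0.00 and EIF4 at −0.20. Against the median of genes in the same signal bin the values were 0.76 for EIF1, 0.21 for EIF2, 0.04 for EIF3, −0.12 for EIF2B, −0.21 for EIF4 and −0.24 for EIF5. Within EIF3 and EIF4 the members ranged from −0.77 to 1.26 and from −1.58 to 0.53, wider than the whole span of the 6 medians, and with 1 array a group the neighbours in this order cannot be told apart. The scatter of all measured genes (a robust standard deviation of the log2 ratio) was 0.38 in the brightest bin and reached 1.11 in a dim one, so a given ratio stands farther from the rest among bright genes such as EIF1, EIF3H and EIF3B than among dim ones such as EIF3C and EIF4E.

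**Figure D4:**
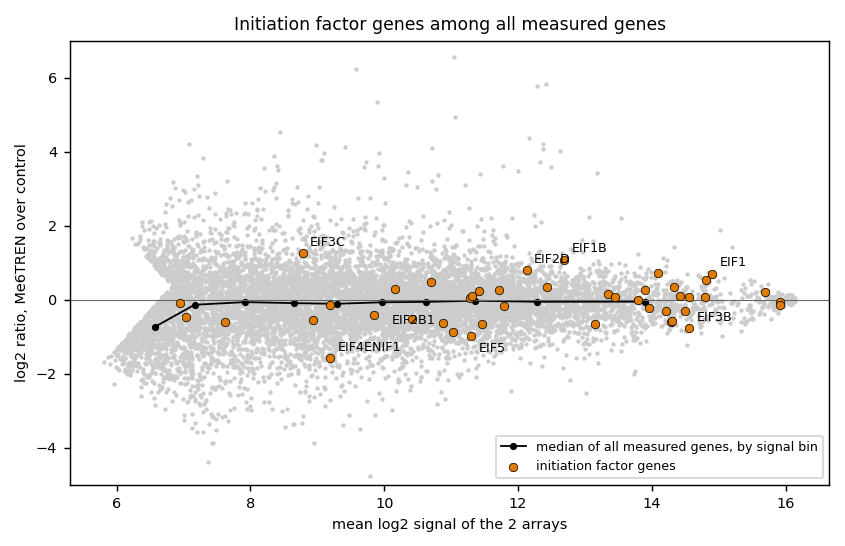
Log2 ratio (y axis) against mean log2 signal of the 2 arrays (x axis) for all 9410 measured genes (grey), with the median of each signal bin (black) and the initiation factor genes (orange). The factor genes crowd at the bright end, where 21 of 44 lie in the brightest bin, and EIF3C and EIF4ENIF1 lie in the broader, dimmer part of the cloud.

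How the arrays were scaled changed the split of the members. As deposited, 13 of the 44 had a higher signal on the Me6TREN array and 31 a lower one, a split not computed for all measured genes. With quantile normalization 21 had a log2 ratio above 0 and 23 below, against 4103 and 5304 of all 9410 measured genes. With median centring 30 were above 0 and 14 below, against 5023 and 4387 of all measured genes. That scaling put 16 of the 44 at least 1.5-fold higher and 3 lower (24.9% and 18.2% of all measured genes). In the brightest bin of all genes the median log2 ratio was 0.55 with median centring, against −0.06 with quantile normalization. With the authors' processed values 5 were higher and 13 lower (11.4% and 29.5%), against 6.78% and 42.3% of all measured genes. EIF1, EIF1B, EIF3C and EIF3H were past 1.5-fold upward, and EIF2B1 and EIF4ENIF1 downward, under each alternative processing that kept the gene, the comparison within signal bins included (EIF1 and EIF3H were left out by the 1 that dropped the brightest 5% of genes). The share of all measured genes past 1.5-fold under each alternative was not computed, so these members cannot be set against it. For EIF3C the direction stays uncertain, because its copy EIF3CL was lower.

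**Figure D5:**
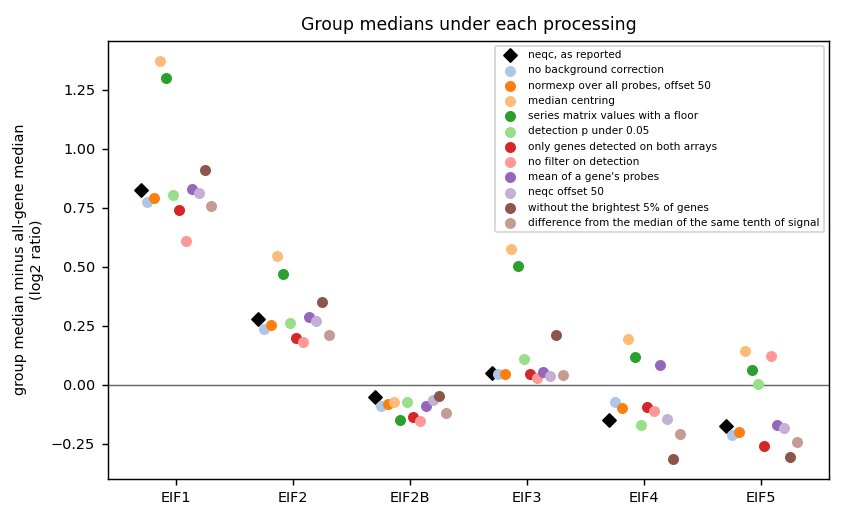
Median log2 ratio of each group minus that of all measured genes (y axis) for the 6 groups (x axis) as reported (black diamonds) and under each alternative (coloured points). EIF1 and EIF2 stay above 0 and EIF2B below 0 throughout, EIF3 stays above 0, and EIF4 and EIF5 fall on both sides.

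Genes that act on the initiation factors were taken from fixed lists. Of 11 measured eIF2 kinase and phosphatase genes, 4 were at least 1.5-fold higher and 1 lower, with a median log2 ratio of 0.29, against 16.5% and 21.9% of all measured genes (2 higher and 3 lower with the authors' processed values, where PPP1R15A and DNAJC3 were the 2). PPP1R15A, the stress-induced subunit that directs a phosphatase to eIF2, had signals of 3639 and 31371 and was 10.8-fold higher. DNAJC3, an inhibitor of eIF2 kinases, was 2.26-fold higher, from a dim probe (469.9 and 581.6). EIF2AK4 (GCN2, the kinase that senses amino acid shortage) was 1.84-fold higher and the adaptor NCK1 1.75-fold. The log2 ratios of the other 3 kinases were −0.47 (EIF2AK1), 0.29 (EIF2AK2) and 0.36 (EIF2AK3), none past 1.5-fold; EIF2AK1 turned to 0.060 with median centring. The gene that was lower was PPP1CA, a catalytic subunit of protein phosphatase 1, at −0.71 (−0.36 with median centring).

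Of 17 measured mTORC1 and cap-binding regulator genes, 2 were higher and 2 lower (11.8% each, against 16.5% and 21.9% of all measured genes), with a median of 0.12. SESN3 and DDIT4, both inhibitors of mTORC1 signalling, were 3.24-fold and 2.37-fold higher; the signals of SESN3, at 360.2 and 531.4, were near the detection limit, and those of DDIT4 were 10464 and 21955. MKNK1, a kinase of eIF4E, was 2.11-fold lower, from signals of 625.1 and 365.1, the latter near the detection limit. MTOR itself was 1.57-fold lower (log2 ratio −0.58, just short of 1.5-fold, with median centring).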

How the data were processed

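RNA was measured on 2 Illumina HT12 arrays, 1 per group, with groups taken from the treatment labels. The authors deposited a table not normalized between arrays, which per the file headers gives each probe's mean bead signal, a linear intensity with the background in it, beside its detection p-value and bead number. The authors also deposited processed intensities, which are each array's signal rescaled with a constant subtracted; the method is not given in the sources used here. Biotin-labelled cRNA came from an Ambion MessageAmp kit, per the labels' protocols.

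Signals were background-corrected and quantile-normalized with the neqc function of limma 3.58.1 (R 4.3.3; negative controls inferred from detection p-values, offset 16) and put on the log2 scale. Quantile normalization forces both arrays to 1 distribution and so removes any array-wide difference. A probe was detected at p under 0.01, and a gene was its brightest probe detected on at least 1 array. Where 1 array alone detected a gene, the ratio was a bound against the other array's lowest detected signal or, if higher, the probe's signal there. Symbols came from the GEO platform annotation (1 symbol for 30113 probes, several for 8), and all 51 reported members matched RefSeq (GRCh38.p14) by Entrez ID. The files name no genome build, so the coordinates printed are RefSeq's for promoters and starts, not the probes'. No test was made, and called means past 1.5-fold. Every member is named or counted, with both signals given for those past 1.5-fold, at the ends of a group, or with probes that disagree; regulators come from 5 lists, up to 4 genes each by size of ratio, to which EIF2AK1, EIF2AK2, EIF2AK3, PPP1CA, EEF1A1, EEF1B2, EEF1G and EEF2 were added after their values were seen. Members, lists and alternatives were chosen with earlier results of these data known. The steps were tested on simulated data. The 10 alternatives concern background, scaling, the processed values, detection, probes, the offset and the brightest 5% of genes; an 11th, comparison within signal bins, was chosen after seeing the data.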

Additional observations from a re-analysis of the deposited data

How the results depend on the processing

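With 1 array per group, no replicate could be left out, and no paired analysis was possible because each group has 1 sample. A value counted as moved if it shifted by over 0.2 on the log2 scale, or a count by over 1.5 times. Of 466 gene values under the alternatives, 398 stayed and 66 moved, and the other 2 turned the sign of a gene past 1.5-fold, EIF3M to 0.086 with median centring and EIF4E to 0.28 with the mean of a gene's probes. A further 18 values, of genes not past 1.5-fold, changed sign, 7 of them with median centring and 9 with the authors' processed values. Group medians are given minus the median of all measured genes, which was −0.12 as reported, 0.07 with median centring and −0.43 with the authors' processed values. As reported they were 0.82 for EIF1, 0.28 for EIF2, 0.05 for EIF3, −0.15 for EIF4 and −0.17 for EIF5. With median centring these were 1.37, 0.54, 0.58, 0.19 and 0.14, with 16 members at least 1.5-fold higher and 3 lower in place of 5 and 9. With the processed values EIF1 was at 1.30, EIF3 at 0.50, EIF4 at 0.12 and EIF5 at 0.064. With no filter on detection EIF1 was at 0.61 and EIF5 at 0.12. With the mean of a gene's probes EIF4 was at 0.086 and 5 members were lower, and without the brightest 5% of genes 3 were higher. The other 83 of 99 group values stayed, and EIF2B lay between −0.15 and −0.05 throughout. The causes of these shifts were not tested, except that the last alternative leaves out EIF1 and EIF3H by construction. Signals under about 333.4 and 350.5 were not told from background, which limits EIF4E, EIF4EBP3 and the dim probes of EIF5 and EIF6.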

Other observations

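Genes that follow initiation showed a few larger differences. Of 11 measured elongation and termination factor genes, 2 were at least 1.5-fold lower and none higher, against 21.9% and 16.5% of all measured genes. With median centring the same 2 were lower and 5 higher (EEF1A1, EEF1B2, EEF1D, EEF1G and EEF2), against 18.2% and 24.9% of all measured genes. EEF2K, the kinase that inhibits elongation factor eEF2, had signals of 2832 and 610.0 and was 4.38-fold lower, more than any initiation factor. ETF1, which encodes the release factor that reads stop codons, had 9762 and 3253 and was 2.33-fold lower. EEF1D and ABCE1, the ribosome recycling factor, had log2 ratios of 0.42 and −0.34. EEF1A1, EEF1B2, EEF1G and EEF2 had signals of about 59851 to 71135 on the control array, close to its highest signal of 73763.

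Among genes picked for the largest ratios of their lists, in either direction, some partners in 1 complex or pathway went apart. Of 9 measured poly(A)-binding and scanning partner genes, 1 was at least 1.5-fold higher and 2 lower. Of the 2 hypusine enzyme genes, 1 was higher and 1 lower. The shares of all measured genes were 16.5% and 21.9%. With median centring 4 of the 9 were higher and none lower, against 24.9% and 18.2% of all measured genes. MCTS1 and DENR, which act together in ribosome recycling and reinitiation, were 1.83-fold higher (signals 1150 and 1283) and 1.63-fold lower (9214 and 4473). DHPS and DOHH, the enzymes that make the hypusine of eIF5A in turn, were 1.61-fold higher and 1.70-fold lower. PAIP1 and PAIP2, which bind the poly(A)-binding protein and respectively stimulate and inhibit translation, had log2 ratios of −0.64 and 0.56, the former from a dim probe (513.3 and 364.0). With median centring the log2 ratios were 0.89 for MCTS1, −0.37 for DENR, 0.99 for DHPS, −0.74 for DOHH, −0.51 for PAIP1 and 1.06 for PAIP2. With the authors' processed values neither MCTS1 nor DHPS was past 1.5-fold. These are values of 2 arrays with no test, and how often other partner genes part in this way was not tested.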
